A study of Arabidopsis thaliana with 6 samples.

Results

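Beta-glucosidases of the BGLU18 to BGLU26 group are described here in 10-day-old seedlings of the frb1-1 mutant and of wild-type FRB1. The 9 loci were chosen by their names as members of this group, and a probe set was taken for each locus that the annotation of the array gives to it. The group was put forward when the genotype comparison of the same arrays was already known, with BGLU19 among its changed genes, so that the genotype differences of the members are given as a description and serve as support for nothing else. The annotation gives 6 probe sets to 7 of the 9 loci, out of 22810 probe sets on the array. BGLU18 (AT1G52400) and BGLU26 (AT2G44490, PEN2) have no probe set named for them here, and no level is given for them.

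The arrays were 3 of frb1-1 and 3 of the wild type, all in the Col-0 background, each hybridized with RNA of whole seedlings grown on Murashige and Skoog medium. The frb1-1 allele is a T-DNA insertion upstream of the coding region of FRB1, which the study takes as probably a partial loss of function. The labels call the replicates biological and do not say how many seedlings each of them pooled. Each value is a MAS5 signal, a linear measure of how brightly a probe set was bound, and the 3 values of a genotype stand in the order of replicates 1, 2 and 3. Signals of different probe sets are not on a shared scale and are not ranked against each other. In whole seedlings, fewer cells of a type and less RNA per cell cannot be told apart.

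Beta-glucosidases cut glucose from small glucosides, and thereby release defence compounds, hormones or wall precursors that plants store as glucosides. The ER body is a spindle-shaped compartment of the endoplasmic reticulum that Arabidopsis and its relatives form in the epidermis of seedlings and in roots. It is packed with PYK10 (BGLU23) and, in smaller amounts, BGLU21 and BGLU22. BGLU18 fills the ER bodies that leaves form after wounding and also frees abscisic acid from its glucose ester. PEN2 (BGLU26) sits on other membranes and cleaves indole glucosinolates in the defence against fungi.

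The main beta-glucosidases of the seedling ER body differed between the genotypes by less than the spread of the arrays. PYK10 (AT3G09260), which cleaves indole glucosinolates and the coumarin glucoside scopolin, had signals of 18024, 19898 and 26184 in frb1-1, against 18627, 21246 and 20406 in the wild type. The groups overlapped, and the highest array was frb1-1 replicate 3. The means were 21369 ± 4274 (SD, n = 3) in frb1-1 and 20093 ± 1337 (SD, n = 3) in the wild type. The log2 fold change of PYK10 (frb1-1 minus wild type) was 0.07, with a 95% interval of -0.33 to 0.48, and it turned to -0.08 without frb1-1 replicate 3.

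BGLU21 (AT1G66270) and BGLU22 (AT1G66280) lie next to each other on chromosome 1 and share 1 probe set, so that the array cannot tell their transcripts apart. Both enzymes act on scopolin in roots. The shared probe set had signals of 3200, 4068 and 4019 in frb1-1, against 3150, 3926 and 2785 in the wild type. The lowest array was wild-type replicate 3, and only wild-type replicate 2 lay within the range of frb1-1. The log2 fold change was 0.20 (95% interval -0.25 to 0.65), and the log2 differences between same-numbered arrays were 0.02, 0.05 and 0.53. The means were 3762 ± 488 (SD, n = 3) in frb1-1 and 3287 ± 583 (SD, n = 3) in the wild type.

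BGLU25 (AT3G03640) had signals of 355, 405 and 257 in frb1-1, against 546, 352 and 241 in the wild type. In both genotypes replicate 3 was the lowest array, and the means were 339 ± 75.2 (SD, n = 3) in frb1-1 and 379 ± 154 (SD, n = 3) in the wild type. The log2 fold change was -0.11 (95% interval -0.79 to 0.58), and its sign turned without wild-type replicate 1 (0.19) or frb1-1 replicate 3 (0.08). The spread of BGLU25 within a genotype (residual SD of 0.48 on the log2 scale) was wider than that of PYK10 (0.21) and of the BGLU21 and BGLU22 probe set (0.22), where the median over all tested probe sets was 0.33.

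BGLU19 (AT3G21370) was the member that differed. Its signal was 411, 267 and 510 in frb1-1, against 14.7, 43.7 and 88.0 in the wild type. The groups did not overlap: the lowest frb1-1 array was 267 and the highest wild-type array 88.0. The means were 396 ± 122 (SD, n = 3) in frb1-1 and 48.8 ± 36.9 (SD, n = 3) in the wild type, a ratio of 8.12. Of the wild-type arrays, 2 lay below a signal of 64, the minimum used here for a measurable probe set (a log2 signal of 6).

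**Figure D1:**
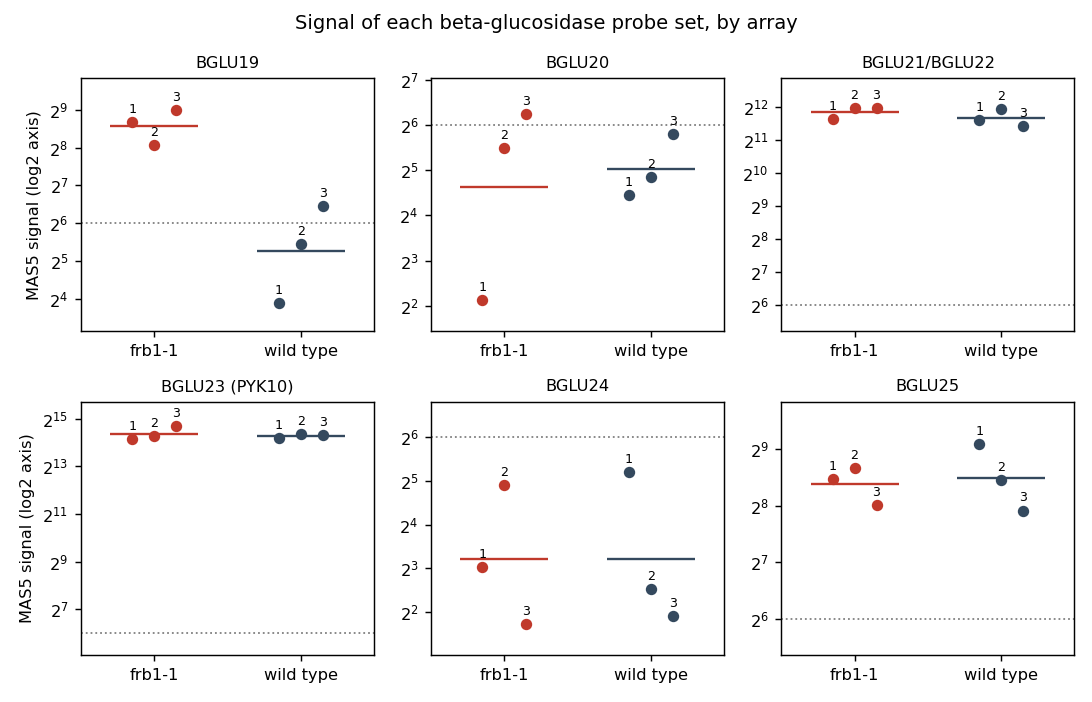
Signal of the 6 probe sets of the BGLU18 to BGLU26 group (MAS5 signal, log2 axis) on each array, with frb1-1 on the left and the wild type on the right of each panel, the replicate number above each point, a bar at the mean log2 signal (n = 3) and a dotted line at a signal of 64. BGLU19 lies between 267 and 510 in frb1-1 and between 14.7 and 88.0 in the wild type, while the other probe sets overlap between the genotypes.

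Across the 15218 probe sets whose log2 signal averaged 6 or more, tested with limma at a Benjamini-Hochberg adjusted p under 0.05, 0.276% were higher in frb1-1 and 0.0920% were lower. Of the 4 member probe sets tested, 1 was called higher (BGLU19) and 0 were called lower, a count that follows from how the group was put forward and from which nothing is read. BGLU19 had a log2 fold change of 3.32 (SE 0.57, 95% interval 2.08 to 4.56, limma adjusted p = 0.0275), where the median over all tested probe sets was 0.01. The call ended under quantile normalization (limma adjusted p = 0.0719), with no minimum (0.0583) and without the mean-variance trend of the fit (0.102). BGLU19 passed the minimum through its frb1-1 arrays alone, since its mean log2 signal was 8.58 in frb1-1 and 5.26 in the wild type. Groups that did not overlap were found for 1 of the 4 (BGLU19), with frb1-1 higher, against 6.26% of all tested probe sets with frb1-1 higher and 4.65% with frb1-1 lower.

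The size of the BGLU19 difference rests on dim wild-type arrays. With every signal under 64 set to 64, the fold taken from the mean log2 signals of BGLU19 was 5.38, with frb1-1 higher. The differences between same-numbered arrays were 4.81, 2.61 and 2.54 on the log2 scale, and the largest was against wild-type replicate 1, whose signal of 14.7 is the lowest of the 6. The call was lost when any 1 array other than wild-type replicate 3 was left out (adjusted p from 0.0537 to 0.181 from limma), while the log2 fold change stayed between 2.63 (without wild-type replicate 1) and 3.92 (without wild-type replicate 3). With 3 arrays a genotype, the smallest p that exact permutation of the arrays allows for 1 gene, two-sided, is 0.10.

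**Figure D2:**
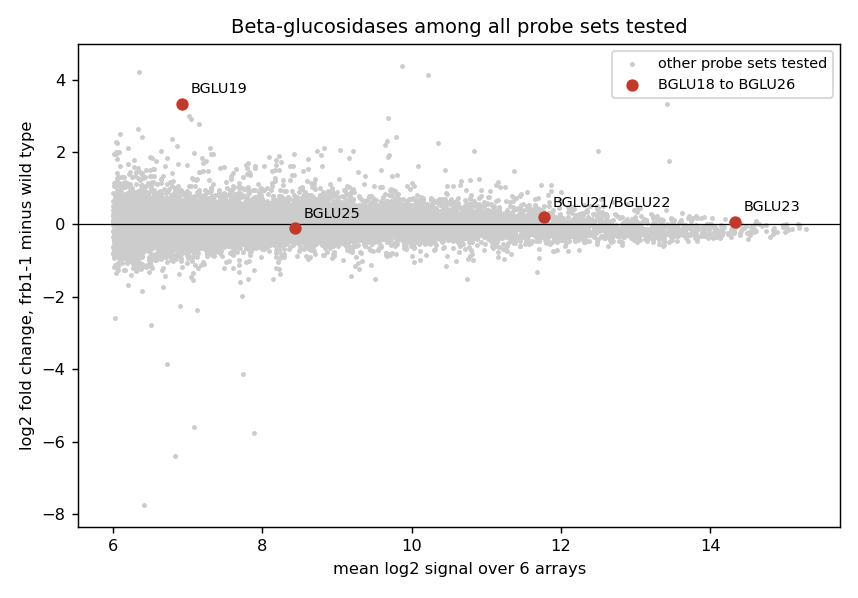
Log2 fold change, frb1-1 minus wild type, of every tested probe set against its mean log2 signal over the 6 arrays (grey points), with the 4 tested probe sets of the BGLU18 to BGLU26 group marked. BGLU19 is at 3.32 and at low mean signal, while PYK10 (BGLU23, 0.07), the probe set of BGLU21 and BGLU22 (0.20) and BGLU25 (-0.11) lie near 0.

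The remaining members, BGLU20 and BGLU24, were too dim to be tested. BGLU20 (AT1G75940, ATA27), a gene known for its expression in anthers, had signals of 4.37, 44.8 and 75.6 in frb1-1, against 22.0, 28.7 and 56.1 in the wild type. Of its arrays, 5 were under a signal of 64 and the groups overlapped. BGLU24 (AT5G28510) had signals of 8.16, 30.1 and 3.29 in frb1-1, against 36.8, 5.73 and 3.76 in the wild type, all 6 under 64. In a fit with no minimum, the 95% interval of the log2 fold change was -2.67 to 1.84 for BGLU20 and -2.52 to 2.53 for BGLU24, so that for neither gene was a difference between the genotypes detectable at these signals.

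Genes that lie beside BGLU19 on chromosome 3 were looked at after its values were seen, in the gene order of TAIR10.1. AT3G21380, which follows it with 1 gene between them, had signals of 182, 173 and 60.0 in frb1-1, against 10.2, 13.2 and 15.3 in the wild type. These groups did not overlap either, and frb1-1 was the higher. AT3G21380 was too dim to enter the test, with 4 of 6 arrays under a signal of 64, and in the fit with no minimum its log2 fold change was 3.28 (SE 0.69, limma adjusted p = 0.128). The gene before BGLU19, AT3G21360, had 139, 156 and 78.4 in frb1-1, against 143, 134 and 165 in the wild type, and overlapped. AT3G21390 had 456, 474 and 473 in frb1-1, against 414, 421 and 341 in the wild type, which gave a log2 fold change of 0.26 (SE 0.21), not past the test, with no overlap.

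Of the seed genes measured, CRA1 and PAP85 were called higher in frb1-1, OLEO2 was not called, and OLEO3 overlapped between the genotypes. Of 13 seed storage and oil body markers, 4 had a named probe set and none of these was at 0. Their summed signal was 5027 to 8183 in frb1-1, against 528 to 978 in the wild type. Such a sum weights each gene by the brightness of its probe set, and in frb1-1 it was mostly the CRA1 signal. CRA1 and OLEO2 entered it only through the study's list of genes changed on these arrays, so that nothing is read from the gap. CRA1, a cruciferin of seeds, had 3993, 4316 and 7232 in frb1-1, against 213, 263 and 423 in the wild type. PAP85, a vicilin-like storage protein gene, had 280, 345 and 359 in frb1-1, against 47.4, 115 and 80.5 in the wild type. Both were called higher by limma (adjusted p = 7.29e-05 for CRA1 and 0.0260 for PAP85), against the 0.276% of all tested probe sets given above. CRA1 is named through the study's list of changed genes, chosen on these arrays, and PAP85 was not called when any 1 frb1-1 array or wild-type replicate 1 was left out (limma adjusted p from 0.0721 to 0.176), nor under quantile normalization (0.0607), with no minimum (0.0718) or without the trend (0.0622). OLEO2, an oleosin gene named through the same list, had 665, 631 and 506 in frb1-1, against 121, 163 and 378 in the wild type. Its groups did not overlap, but its log2 fold change of 1.61 (SE 0.37, limma adjusted p = 0.133) was not past the test. OLEO3, another oleosin gene, had 88.9, 88.5 and 85.4 in frb1-1, against 147, 62.6 and 96.8 in the wild type, with overlap. PAP85 and OLEO3 are the 2 that the annotation itself names, of which limma called 1, with a median log2 fold change of 0.99. Among the wild-type arrays, BGLU19, CRA1 and OLEO2 were highest on replicate 3 and lowest on replicate 1. PAP85 was highest there on replicate 2, and OLEO3 on replicate 1. Among the frb1-1 arrays, BGLU19 was lowest on replicate 2 and CRA1 on replicate 1. Whether the seed transcripts have a part in the BGLU19 difference was not tested.

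**Figure D3:**
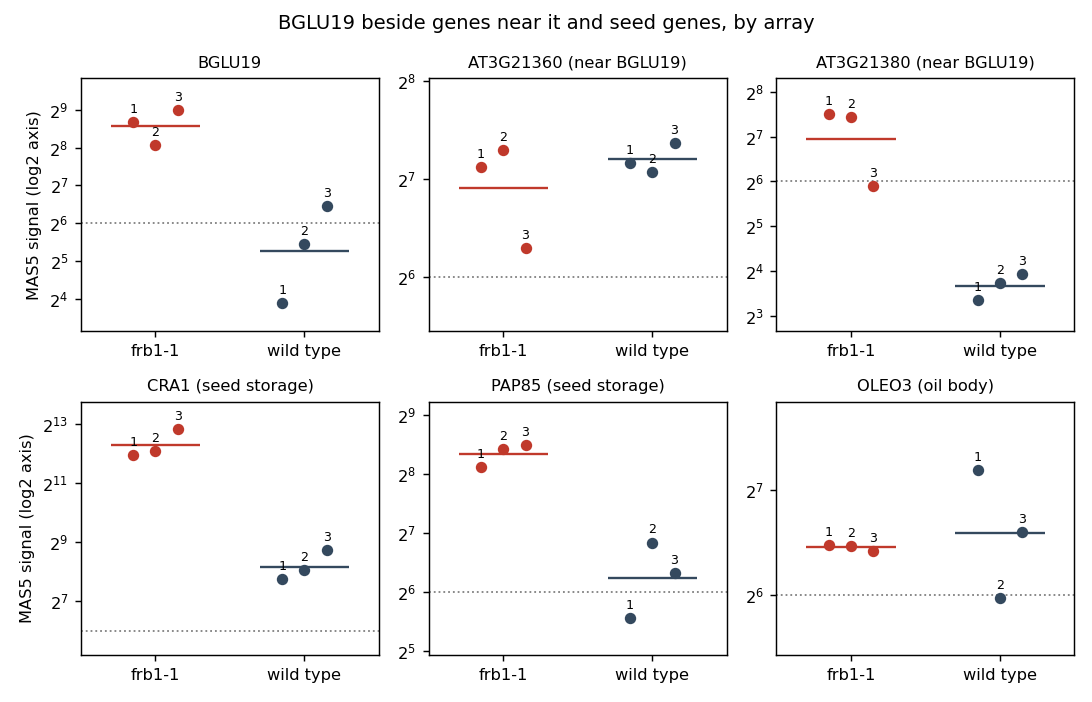
Signal of BGLU19, of AT3G21360 and AT3G21380 near it on chromosome 3, and of the seed genes CRA1, PAP85 and OLEO3 on each array (MAS5 signal, log2 axis), with frb1-1 on the left and the wild type on the right, replicate numbers above the points, bars at the mean log2 signal (n = 3) and a dotted line at a signal of 64. BGLU19, AT3G21380, CRA1 and PAP85 are higher on all 3 frb1-1 arrays than on any wild-type array, and AT3G21360 and OLEO3 overlap.

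The balance of root and green tissue is given beside these values, since PYK10, BGLU21 and BGLU22 are genes of roots and hypocotyls. Of 14 root markers only EXPA7, an expansin of root hairs, had a named probe set, with 345, 338 and 482 in frb1-1, against 318, 395 and 340 in the wild type. Of 11 green shoot markers 4 were measured. Their summed signal, again weighted by probe set brightness, was 51483 to 59171 in frb1-1, against 58204 to 71032 in the wild type. Their log2 fold changes ran from -0.41 for RCA, the activase of Rubisco (SE 0.20), to -0.10 for PSAN, a photosystem I subunit (SE 0.16), and limma called 0 of the 4 (0 at an unadjusted p under 0.05). For 1 of the 4, PRK, the groups did not overlap, with 10156 to 11642 in frb1-1 and 12085 to 14334 in the wild type. Among all tested probe sets, 4.65% had groups without overlap and frb1-1 lower. No marker named here was at 0 on any array. The part of tissue composition in the PYK10 and BGLU21 and BGLU22 levels was not tested.

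Other components of the ER body also showed no called difference. Of 15 genes of the ER body and of the complex that PYK10 forms in broken cells, 6 had a named probe set and 5 were tested. None was called higher or lower by limma over all probe sets (1 at an unadjusted p under 0.05, as were 907 of the 15218 tested), and their median log2 fold change was -0.11. NAI1, the bHLH regulator that ER body formation needs, had 529, 543 and 894 in frb1-1, against 521, 623 and 801 in the wild type. NAI2, a structural protein of the ER body, had 2892, 4137 and 2375 in frb1-1, against 4293, 4588 and 1817 in the wild type. In both genotypes replicate 3 was the highest array for NAI1 and the lowest for NAI2, and the groups overlapped for both genes.

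The lectins of the PYK10 complex bind sugars. JAL22 was the gene of this list with the smallest p, with signals of 2599, 2907 and 3579 in frb1-1, against 3760, 5446 and 3771 in the wild type. Its groups did not overlap and frb1-1 was the lower, but the log2 fold change of -0.50 (SE 0.22, limma adjusted p = 0.821) did not pass the test. JAL33 was at the other end, with a log2 fold change of 0.04 (SE 0.18), and JAL23 was under the minimum signal.

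Outside the BGLU18 to BGLU26 group, 18 of 32 other beta-glucosidases had a named probe set and 12 were tested. Of these, 2 were called higher and none lower, where 0.276% and 0.0920% of all tested probe sets were, and the median log2 fold change was 0.56. The 2 called genes, BGLU30 and BGLU11, are named only through the list of changed genes of the study, which was chosen on these arrays, and are not independent evidence of a direction. BGLU30 (DIN2), a gene known for its induction in the dark and in senescence, had 1222, 1154 and 1250 in frb1-1, against 302, 409 and 208 in the wild type. Its log2 fold change was 2.04 (SE 0.26, limma adjusted p = 0.00646). BGLU11 had 746, 637 and 976 in frb1-1, against 200, 291 and 286 in the wild type, with a log2 fold change of 1.60 (SE 0.25, limma adjusted p = 0.0195). For both genes every frb1-1 array was above every wild-type array. BGLU30 lost its call without wild-type replicate 1 (limma adjusted p = 0.0511), and BGLU11 without wild-type replicate 1 or 2 or without frb1-1 replicate 1 or 3 (0.0680 to 0.117) or without the trend (0.0710).

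Of the 10 tested other beta-glucosidases that the annotation itself names, limma called 0 (2 at an unadjusted p under 0.05). A log2 fold change above 0 was found for 8 of them (median 0.41). Over all tested probe sets, 907 of 15218 had an unadjusted p under 0.05, and the median log2 fold change was 0.01. The share above 0 over all probe sets is not given, so that no rise of the family is read from these counts. BGLU28, which acts on glucosinolates when sulfur is short and lies near PEN2 on chromosome 2, had 208, 296 and 227 in frb1-1, against 118, 84.2 and 107 in the wild type. Its groups did not overlap, with a log2 fold change of 1.24 (SE 0.30, limma adjusted p = 0.172) that did not pass. At the lower end, BGLU47 had a log2 fold change of -0.70 (SE 0.51), with overlap. BGLU33, which like BGLU18 frees abscisic acid from its glucose ester, had 0.67 (SE 0.38), also with overlap.

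**Figure D4:**
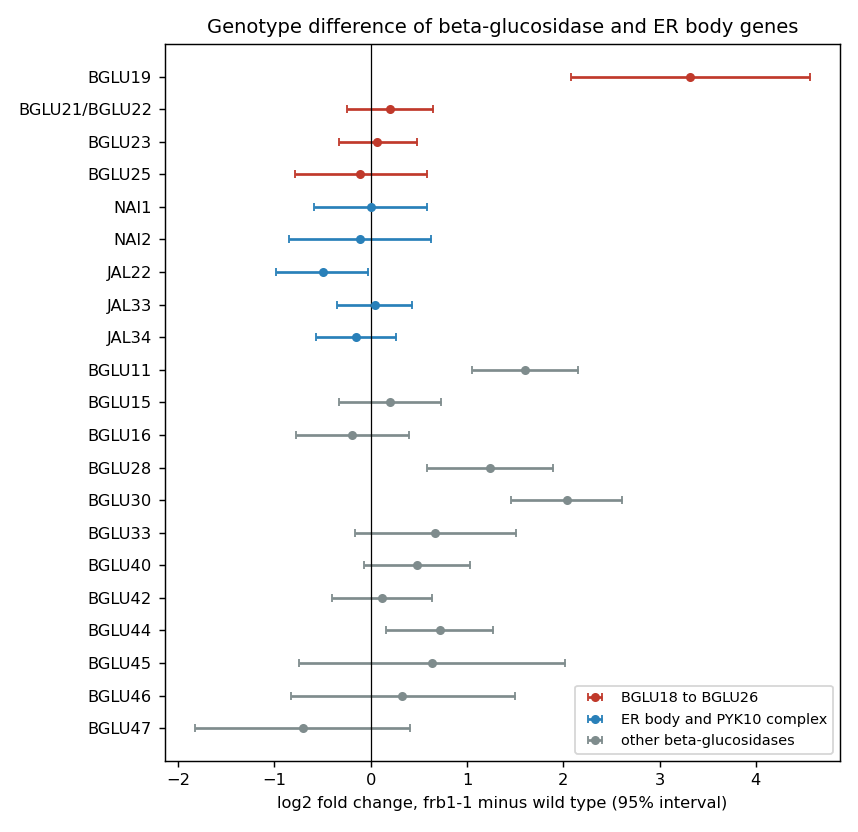
Log2 fold change, frb1-1 minus wild type, with its 95% interval from limma, for the 4 tested probe sets of the BGLU18 to BGLU26 group (red), 5 genes of the ER body and PYK10 complex (blue) and 12 other beta-glucosidases (grey). BGLU19 is at 3.32, BGLU30 at 2.04 and BGLU11 at 1.60, while the intervals of PYK10 (labelled BGLU23), of the BGLU21 and BGLU22 probe set and of BGLU25 include 0.

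Genes that make or handle the substrates of these enzymes were few on the annotated part of the array. Of 6 coumarin pathway genes 4 were tested, which make or carry on from scopoletin, the aglycone of scopolin. None was called (2 at an unadjusted p under 0.05), and all 4 had a negative log2 fold change, with a median of -0.90. For the 3 that the annotation itself names, the median was -0.58, with 1 at an unadjusted p under 0.05. CYP82C4, an enzyme of coumarins made under iron shortage, had 107, 95.5 and 161 in frb1-1, against 245, 294 and 281 in the wild type. Its groups did not overlap, with a log2 fold change of -1.21 (SE 0.29, limma adjusted p = 0.178). The gene is named only through the study's list chosen on these arrays. S8H, which makes fraxetin from scopoletin, had 35.7, 7.21 and 74.6 in frb1-1, against 143, 137 and 208 in the wild type. Its log2 fold change of -2.58 (SE 0.75, limma adjusted p = 0.365) rests on dim frb1-1 arrays, 2 of them under a signal of 64. S8H passed the minimum through its wild-type arrays alone, since its mean log2 signal was 4.74 in frb1-1 and 7.32 in the wild type. Since the medians include S8H or CYP82C4, no direction of the pathway is read from them or from the shared sign. COSY, which closes the coumarin ring, was at the other end with -0.34 (SE 0.21).

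Of 18 indole glucosinolate genes 2 were tested and none was called (1 at an unadjusted p under 0.05). MYB51, a regulator of indole glucosinolate synthesis, had 319, 217 and 260 in frb1-1, against 141, 118 and 134 in the wild type, with no overlap (limma adjusted p = 0.290). UGT74B1, an enzyme of the core pathway, had a log2 fold change of 0.07 (SE 0.20). Of 14 abscisic acid genes 2 were tested and none was called (1 at an unadjusted p under 0.05). CYP707A3, which breaks abscisic acid down, had a log2 fold change of 1.54 (SE 0.40, limma adjusted p = 0.242) and UGT71C5, which conjugates it to glucose, 0.01 (SE 0.22). MYB51 and CYP707A3 are named through the same list of the study. Of 10 ER chaperone and stress genes 2 were tested and none was called (0 at an unadjusted p under 0.05), with log2 fold changes of 0.50 for BZIP60 (SE 0.33), a regulator of the unfolded protein response, and 0.28 for the calreticulin CRT2 (SE 0.19). No gene of the lists of classical myrosinases with specifier proteins or of jasmonate had a named probe set here.

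The profiles most like those of 2 members were taken by the root mean square difference of log2 signals, each centred on its own mean, over the 6 arrays. For BGLU19 they were AT5G09570 (0.52), COB (0.62), CRA1 (0.67), ATOEP16-2 (0.68) and M17 (0.83). All 5 had positive log2 fold changes, of 2.37 for AT5G09570 to 4.12 for CRA1. COB, CRA1 and M17 were called higher by limma, as were 0.276% of all tested probe sets. AT5G09570 and ATOEP16-2 were not called (limma adjusted p = 0.106 and 0.338). The signs and the calls follow in part from choosing genes by likeness to BGLU19, and nothing is read from them. AT5G09570 had 317, 172 and 293 in frb1-1, against 23.2, 49.3 and 101 in the wild type. For PYK10 they were AT4G19985 (0.05), AT2G37540 (0.05), AT1G69450 (0.06), AT5G10820 (0.06) and AT2G44660 (0.06), with log2 fold changes of 0.04 to 0.13. The points share 6 arrays in 2 genotypes, so that likeness to BGLU19 includes its genotype difference.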

How the data were processed

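The authors hybridized RNA of 3 frb1-1 and 3 wild-type seedling samples to ATH1 arrays, and the deposited intensity values are MAS5 signals on a linear scale, scaled to a common target (the trimmed mean is 500 on every array). The paper states that absent probe sets were removed and that a spreadsheet was used. The deposited table holds all 22810 probe sets, without detection calls. The number of arrays limits the precision. Scaling each array to one target sets its overall brightness equal, and MAS5 signals of dim probe sets scatter widely, so that dim values carry the largest errors.

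Here 64 controls were left out and the 15218 probe sets whose log2 signal averaged 6 or more were fitted on the log2 scale with limma 3.58.1 in R 4.3.3 (lmFit, eBayes with a mean-variance trend, genotype as the only term). Adjusted p-values follow Benjamini-Hochberg over all tested probe sets, at 0.05. Arrays correlated from 0.918 to 0.972 within and from 0.920 to 0.962 between the genotypes.

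Probe sets were named by the annotation through gene IDs matched to locus tags of TAIR10.1. It gives 1 gene to 13513 probe sets, several to 503 and none to 8794, and 54 more were named, without using its values, by the study's table of changed genes. A list gene was measured by its probe set with the highest mean log2 signal that names it alone. The members and the 11 lists (157 genes, 44 with a name and 36 tested) were chosen with earlier results of these data known. Genes named in the text are all members, called list genes, or else the gene of smallest p and both ends of a list, and the 5 nearest profiles of PYK10 and BGLU19. NAI1, NAI2, BGLU28, BGLU33, BGLU47, OLEO2, OLEO3, JAL23, PRK and the neighbours of BGLU19 were named after their values were seen. No sequence is printed.

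The alternatives tried were quantile normalization, median scaling, array weights, no mean-variance trend, no minimum, a minimum of 7 for the mean or of 6 on every single array, adding 32 to each signal, the replicate number as a block, leaving out arrays in turn, and ratios of mean linear signals.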

Additional observations from a re-analysis of the deposited data

How the results depend on the processing

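The count of members called was 1 (BGLU19). It was 0 under quantile normalization (adjusted p = 0.0719 from limma), with no minimum (0.0583) and without the mean-variance trend (0.102), and 0 with the minimum raised to 7 or asked of every array, where BGLU19 was not tested. It was 0 to 1 without 1 array. BGLU19 kept the call under median scaling, array weights and a pseudocount of 32, which gave a log2 fold change of 2.47. The log2 fold change of PYK10 turned to -0.02 with array weights and was -0.08 to 0.19 without 1 array. That of BGLU25 was -0.39 to 0.19 without 1 array. Neither had passed the test.

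The count of list genes called was 4 (CRA1, BGLU30, BGLU11 and PAP85), of which 3 are named by the study's table alone. It was 2 without the mean-variance trend, 6 with the replicate block, 7 with array weights and 1 to 5 without 1 array. The share of all probe sets called under each setting is not given here, so that these changes are not read as results about the lists. Without 1 array BGLU30 lost its call only without wild-type replicate 1 (adjusted p = 0.0511 from limma). BGLU11 was no longer called when frb1-1 replicate 1 or 3, or wild-type replicate 1 or 2, was left out (0.0680 to 0.117), or without the mean-variance trend (0.0710). For PAP85 this held for each frb1-1 array and for wild-type replicate 1 (0.0721 to 0.176), and for quantile normalization (0.0607), no minimum (0.0718) and no mean-variance trend (0.0622). The causes were not tested.

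Whether the replicate numbers pair the arrays was not settled. The deviations of same-numbered arrays correlated at 0.041, 0.280 and 0.325, and those of differently numbered arrays at -0.309 to 0.117. With the replicate block the count of members called was 1, with BGLU19 at an adjusted p of 0.00172 from limma. Signals under 64 limit BGLU19 in the wild type, and BGLU20 and BGLU24 in both genotypes.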
